A study of Homo sapiens with 32 samples.

Results

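Genes of the lysosome and of autophagy, 48 in number, were described in polysomal RNA-Seq of 2 human breast cell lines. The members were the protein-coding rows of the deposited tables that carry 1 of 48 gene symbols, and all 48 were found among 19815 protein-coding genes and 60554 genes in all. They were treated as 3 classes, with 14 genes of the V-ATPase (the proton pump that acidifies lysosomes), 15 lysosomal hydrolases and membrane or transport proteins, and 19 genes of autophagy. MCF10A is an immortalised but non-malignant mammary epithelial line, whereas MDA-MB-231 is a metastatic triple-negative breast carcinoma line. Cells were kept in normoxia with vehicle (N), in hypoxia of 0.5% O2 for 24 hours with vehicle (H), in normoxia with PP242 at 2.5 µM for 3 hours (NPP) or in the same hypoxia with the same PP242 dose (HPP). PP242 is an ATP-competitive inhibitor of mTOR kinase that acts on mTORC1 and mTORC2. Total mRNA (T) and mRNA bound to polysomes on a sucrose gradient (P) were sequenced for each condition, with 2 biological replicates per group, 8 groups per line and 32 libraries.

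Lysosomes degrade what is delivered to them by endocytosis or autophagy, by means of hydrolases that work at the acid pH set by the V-ATPase. In autophagy, the ULK1 kinase complex and the Beclin 1 lipid kinase complex start a double membrane, to which proteins of the ATG8 family are joined as it grows around its cargo. Active mTORC1 sits on the lysosomal surface, where it phosphorylates ULK1 and the transcription factor TFEB. TFEB that is not phosphorylated enters the nucleus and binds a palindromic E-box called the CLEAR element near the start of many lysosomal genes.

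The core of that element, TCACGTGA, was searched in promoters (250 bases before to 50 bases after the start) of the RefSeq table on GRCh38.p14, in which 37 of the 48 members had an entry. It reads the same on either strand and holds the shorter E-box CACGTG. It was found in 13.5% of the 37 member promoters and in 1.45% of 14419 protein-coding promoters, and CACGTG was found in 24.3% and 8.94%. By class, the core was present in 2 of 9 V-ATPase, 3 of 11 lysosomal and 0 of 17 autophagy promoters. Among further genes of the same pathways, it was present in 0 of 9 V-ATPase, 5 of 32 lysosomal and 2 of 27 autophagy promoters. A match describes letters and is not a measured binding site. The 5 stretches are shown because they are the places where this element lies in the members, with the element in capitals and each read 5′ to 3′ on the gene's strand.
ATP6V0D1, chr16:67481184-67481243, minus strand: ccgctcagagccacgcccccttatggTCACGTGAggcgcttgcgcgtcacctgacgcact
ATP6V1G1, chr9:114587684-114587743, plus strand: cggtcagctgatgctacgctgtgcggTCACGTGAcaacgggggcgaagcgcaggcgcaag
CTSA, chr20:45891283-45891342, plus strand: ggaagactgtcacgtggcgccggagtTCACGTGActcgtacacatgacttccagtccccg
LAMP1, chr13:113297184-113297248, plus strand: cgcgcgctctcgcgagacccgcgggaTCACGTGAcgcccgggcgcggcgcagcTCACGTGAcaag
MCOLN1, chr19:7522556-7522633, plus strand: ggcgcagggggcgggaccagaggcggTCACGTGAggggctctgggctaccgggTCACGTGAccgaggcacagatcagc
ATP6V0D1 and ATP6V1G1 are V-ATPase subunits, CTSA is a carboxypeptidase that protects other lysosomal enzymes, LAMP1 is a major lysosomal membrane protein and MCOLN1 is a lysosomal calcium channel. None of these 5 genes passed the test in any treatment comparison below.

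The libraries held 18340916 to 46032327 counts, with a median of 34561484, and were compared as CPM, the usual depth-scaled count, after TMM scaling. A CPM is a share of a library, so fewer cells and less RNA per cell cannot be told apart. The hypoxia marker CA9 was at 7.72 to 26.9 CPM in the 8 MCF10A libraries kept in normoxia and at 521.7 to 1355.5 CPM in the 8 kept in hypoxia. Its MDA-MB-231 levels were at or below 1.02 CPM in normoxia and at 13.0 to 34.6 CPM in hypoxia. MDA-MB-231 libraries carried the mesenchymal markers VIM and ZEB1, with a median of 3973.5 and 61.9 CPM, while ESR1 and PGR were below 1 CPM. ERBB2, the third gene that defines triple-negative disease, was at 25.7 to 46.5 CPM there and at 98.5 to 198.8 CPM in MCF10A. In the libraries labelled MCF10A the basal keratins KRT5 and KRT14 were high, with a median of 1919.1 and 1542.7 CPM. However, 2 defining epithelial markers were nearly absent from them: CDH1 reached 0.361 CPM and TP63 reached 0.226 CPM at most, and VIM had a median of 2619.8 CPM. These libraries thus go against their label in part, the identity or state of the culture is in doubt, and MCF10A stands below for the libraries so labelled. Of the 3 leukocyte markers, PTPRC stayed at or below 1.14 CPM and CSF1R at or below 2.95 CPM in all libraries, and the most abundant, CD14, reached 11.9 CPM in MCF10A.

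Several MCF10A libraries stood apart in how they covered short and long transcripts. For each library, the median log2 deviation from the mean of its fraction was taken over genes with transcripts under 1000 bases and over 4000 bases, and the second was subtracted from the first. This difference lay between −0.48 and 0.49 in MDA-MB-231. In MCF10A it was 1.52 in NPP T replicate 2, 1.19 in N P replicate 1, 0.97 in H P replicate 1 and −0.91 in HPP P replicate 2. Of the other MCF10A libraries, HPP T replicate 2 (0.73), H T replicate 1 (−0.70), NPP T replicate 1 (−0.64), H P replicate 2 (−0.59) and HPP T replicate 1 (−0.54) also lay outside the MDA-MB-231 range. Short members moved with it. ATP6V1F, a V-ATPase subunit with a transcript of 678 bases, was at 144.6 and 54.4 CPM in the 2 MCF10A N P libraries. RB1CC1, a scaffold of the ULK1 complex with a transcript of 6636 bases, was at 59.9 and 5.99 CPM in the 2 MCF10A NPP T libraries. Counts of called members without the 4 libraries above 0.9 in size, called those of uneven coverage below, and with an offset for transcript length fitted to each library, are given beside the main ones where they differ by more than 1.5 times.

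Among the treatment comparisons, calls among the members were most frequent in HPP against N, and so were calls among all tested genes. In total mRNA of MCF10A, 7 members rose and 1 fell in HPP against N (edgeR quasi-likelihood F test, Benjamini-Hochberg adjusted p under 0.05 over all genes), where 7.43% of all tested genes rose and 7.47% fell. In MDA-MB-231, 11 members rose and 1 fell, against 6.31% and 6.91% of all tested genes. In either direction this is 16.7% of the members beside 14.9% of all genes in MCF10A, a share near the background, and 25% beside 13.2% in MDA-MB-231. The 6 genes that rose in both lines were CTSB, GABARAPL1, MAP1LC3B, NEU1, NPC1 and PSAP, and ATG16L1 fell in both. By class, 1 of 14 V-ATPase, 4 of 15 lysosomal and 2 of 19 autophagy members rose in MCF10A, and 0 of 14, 6 of 15 and 5 of 19 rose in MDA-MB-231. The median log2 fold change was 0.33 for the V-ATPase, 0.78 for lysosomal and 0.03 for autophagy members in MCF10A, beside −0.01 over all genes. It was 0.08, 0.37 and 0.29 in MDA-MB-231, beside −0.05 over all genes. All 15 lysosomal members had a positive change in both lines, from 0.33 to 1.52 in MCF10A and from 0.06 to 1.2 in MDA-MB-231, although most did not pass the test. The same did not hold in polysomal mRNA, as given below.

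**Figure D1:**
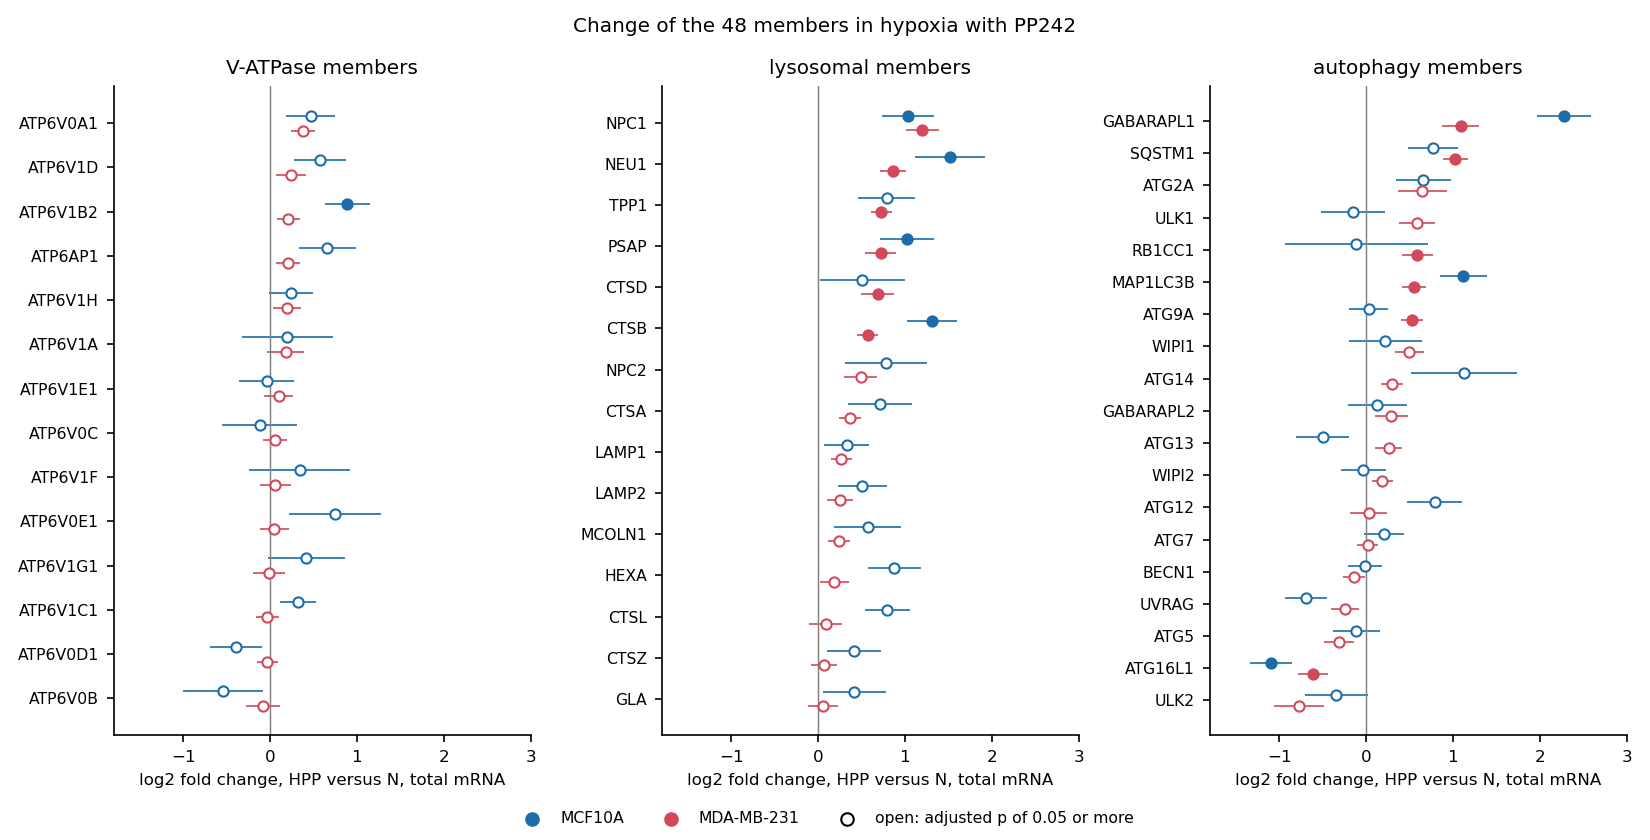
Log2 fold change in total mRNA in HPP against N for each of the 48 members (horizontal axis), by class, in MCF10A (blue) and MDA-MB-231 (red). Points are estimates from 2 libraries per group, bars are 1 standard error, and filled points have an adjusted p under 0.05. Every lysosomal member lies to the right of 0, GABARAPL1 has the largest rise in MCF10A at 2.28, and ATG16L1 is below 0 with filled points in both lines.

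These counts depended on single libraries. In MCF10A total mRNA the 8 called members became 5 without HPP T replicate 1, where 10% of all genes were called, and GABARAPL1 alone remained without HPP T replicate 2 or without either N T replicate. The share of all genes was 5.24% without HPP T replicate 2, and 5.44% and 4.4% without N T replicates 1 and 2. In MDA-MB-231 the 12 called members became 4 without N T replicate 2, 7 without either HPP T replicate and 9 without N T replicate 1, and the 4 that remained were NEU1, NPC1, SQSTM1 and TPP1. Between 4.02% and 6.45% of all genes were called in these 4 fits. Without the 4 MCF10A libraries of uneven coverage 14 members were called in MCF10A total mRNA, which kept all 8, although none of the 4 is in this comparison. The HPP T replicates of this comparison themselves lay at −0.54 and 0.73 in short-minus-long difference, and both N T replicates at −0.28. With the offset for transcript length 15 were called, and with the replicate number as a block 14, which also kept all 8. All genes were called more often in these fits too, at 23.1%, 26.5% and 26.5%. Where a single gene below is said not to pass, the main fit without a block is meant. Other fits called fewer. Without a filter 5 remained, where 9.56% of all genes were called, and with only the groups compared in the fit GABARAPL1 alone remained, where 8.53% were.

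Among the autophagy genes, the ATG8 family member GABARAPL1, which is joined to the growing autophagosome membrane, showed the largest rise. In MCF10A total mRNA it was at 6.71 and 6.74 CPM in N, 10.8 and 11 CPM in H, 19.5 and 18.0 CPM in NPP, and 24.0 and 41.6 CPM in HPP. The 4 conditions did not overlap. The log2 fold change of HPP against N was 2.28 ± 0.31 (SE, adjusted p = 0.000985, n = 2 per group by edgeR across all genes). In MDA-MB-231 total mRNA GABARAPL1 was at 22.1 and 17.5 CPM in N, 20.4 and 23.8 CPM in H, 39.0 and 25.8 CPM in NPP, and 44.3 and 40.3 CPM in HPP, a log2 fold change of 1.09 ± 0.21 (adjusted p = 0.00488). N and H overlapped there, and both PP242 groups lay above them.

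MAP1LC3B, the LC3 protein commonly used to follow autophagosomes, rose by less. Its MCF10A levels were 77.8 and 80.8 CPM in N T, 110.3 and 130.1 in H T, 104.996 and 123.9 in NPP T, and 144.0 and 200.9 in HPP T (log2 fold change of HPP against N 1.12 ± 0.27, adjusted p = 0.0183). The level in MDA-MB-231 was 130.4 and 149.0 CPM in N T, 164.5 and 195.3 in H T, 159.6 and 162.1 in NPP T, and 214.1 and 194.4 in HPP T (0.55 ± 0.14, adjusted p = 0.0220), a call lost without HPP T replicate 1 or either N T replicate. Its near copy MAP1LC3B2 had a median of 36.5 counts per library against 5289 for MAP1LC3B, so a share of its reads is uncertain. GABARAPL2, another ATG8 protein, did not pass the test in either line, with a log2 fold change of 0.13 ± 0.34 in MCF10A and 0.29 ± 0.19 in MDA-MB-231. In MCF10A it was at 72.5 and 67.3 CPM in N T, 58.5 and 79.8 in H T, 63.5 and 121.5 in NPP T, and 65.5 and 87.3 in HPP T, where N lay within the spread of the other groups. In MDA-MB-231 it was at 51.4 and 53.0 CPM in N T, 56.6 and 76.8 in H T, 50.4 and 61.5 in NPP T, and 64.6 and 62.7 in HPP T.

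SQSTM1 encodes the cargo receptor p62, which hands ubiquitinated cargo to autophagosomes. Its MDA-MB-231 levels were 289.1 and 305.2 CPM in N T, 360.7 and 369.6 in H T, 536.5 and 512.7 in NPP T, and 621.3 and 593.3 in HPP T, with no overlap between conditions. The log2 fold change of HPP against N was 1.03 ± 0.14 (adjusted p = 0.000412), and it passed the test in every alternative run. Its MCF10A levels were 209.3 and 219.1 CPM in N T, 156.7 and 182.9 in H T, 336.7 and 602.6 in NPP T, and 314.9 and 413.5 in HPP T. The total mRNA change there did not pass (0.77 ± 0.29, adjusted p = 0.104), although both HPP libraries lay above both N libraries. The polysomal change was 1.22 ± 0.30 (adjusted p = 0.0130), a call lost without the libraries of uneven coverage, with only the groups compared, and without HPP P replicate 2 or either N P replicate. The changes in the 2 fractions were not shown to differ, since the Te test of SQSTM1 did not pass.

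ATG16L1, which directs the joining of ATG8 proteins to the membrane, fell in both lines. In MCF10A it was at 24.8 and 27.2 CPM in N T, 23.8 and 22.7 in H T, 18.1 and 16.6 in NPP T, and 13.3 and 11 in HPP T (−1.09 ± 0.24, adjusted p = 0.0103). The level in MDA-MB-231 was 21.6 and 20.2 CPM in N T, 22.4 and 24.2 in H T, 13.7 and 15.3 in NPP T, and 15.2 and 12.2 in HPP T (−0.61 ± 0.17, adjusted p = 0.0289). All PP242 libraries lay below all libraries without it in total mRNA of both lines. The MDA-MB-231 call was lost without a filter, with only the groups compared, and without any 1 of its 4 libraries. The MCF10A call was lost with only the groups compared, and without HPP T replicate 2 or either N T replicate.

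ULK1, the kinase that starts autophagy, and WIPI1, which binds the phosphoinositide of the forming membrane, did not pass in total mRNA against N. ULK1 was at 19.7 and 21.0 CPM in MCF10A N T, 29.0 and 23.8 in H T, 31.4 and 25.9 in NPP T, and 21.4 and 15.3 in HPP T (−0.15 ± 0.37). In MDA-MB-231 it was at 18.9 and 13.6 CPM in N T, 13.6 and 9.93 in H T, 26 and 27.8 in NPP T, and 20.4 and 28.9 in HPP T (0.59 ± 0.21, adjusted p = 0.0769), and it rose in HPP against H (1.06 ± 0.21, adjusted p = 0.0164). The latter call was lost with only the groups compared, and without HPP T replicate 2 or H T replicate 2. WIPI1 was at 13.3 and 15.5 CPM in MCF10A N T, 14.0 and 19.9 in H T, 16.5 and 31.7 in NPP T, and 10.4 and 23.3 in HPP T (0.22 ± 0.42). Its MDA-MB-231 levels were 42.9 and 37.6 CPM in N T, 43.4 and 41.7 in H T, 59.1 and 45.7 in NPP T, and 55.0 and 59.3 in HPP T (0.50 ± 0.17, adjusted p = 0.0622). The other autophagy members that rose in MDA-MB-231 total mRNA were ATG9A (0.53 ± 0.13), a membrane protein that supplies lipids, and RB1CC1 (0.59 ± 0.18).

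Among the lysosomal genes, NPC1, the transporter that exports cholesterol from lysosomes, rose in both lines. The level in MDA-MB-231 was 82.0 and 57.3 CPM in N T, 86.6 and 70.7 in H T, 149.5 and 111.02 in NPP T, and 172.0 and 149.2 in HPP T (1.2 ± 0.19, adjusted p = 0.00160). Its MCF10A levels were 31.4 and 25.7 CPM in N T, 30.0 and 24.8 in H T, 57.2 and 34 in NPP T, and 61.4 and 55.6 in HPP T (1.04 ± 0.30, adjusted p = 0.0412). N and H overlapped in both lines, and all PP242 libraries lay above them. The MCF10A call was lost without a filter, with only the groups compared, and without any 1 of its 4 libraries. The MDA-MB-231 call held in every alternative run.

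NEU1, the lysosomal sialidase, was at 19.2 and 20.9 CPM in MCF10A N T, 25.1 and 32.9 in H T, 21.3 and 48.5 in NPP T, and 41.0 and 74.0 in HPP T (1.52 ± 0.40, adjusted p = 0.0250). In MDA-MB-231 it was at 41.9 and 42.9 CPM in N T, 58.4 and 57.5 in H T, 64.5 and 62.0 in NPP T, and 82.9 and 71.1 in HPP T (0.86 ± 0.15, adjusted p = 0.00230). In MDA-MB-231 the conditions did not overlap, and N was the lowest.

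CTSB, the cysteine protease cathepsin B, took the most counts of any member in MCF10A total mRNA in normoxia. It was at 658.6 and 774.6 CPM in N T, 768.6 and 995.5 in H T, 1461.0 and 2231.1 in NPP T, and 1520.4 and 2028.2 in HPP T (1.31 ± 0.29, adjusted p = 0.0115). Its MDA-MB-231 levels were 239.7 and 226.6 CPM in N T, 293.0 and 292.7 in H T, 259.1 and 251.4 in NPP T, and 349.5 and 343.0 in HPP T (0.57 ± 0.12, adjusted p = 0.00757). In MCF10A both PP242 groups lay above N and H, whereas in MDA-MB-231 H lay above NPP.

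TPP1, a lysosomal tripeptidyl peptidase, was at 48 and 44.7 CPM in MDA-MB-231 N T, 55.8 and 53.4 in H T, 66.1 and 57.8 in NPP T, and 75.5 and 78.2 in HPP T (0.73 ± 0.12, adjusted p = 0.00188), with no overlap between conditions. In MCF10A it was at 38.5 and 30.3 CPM in N T, 44.9 and 31.8 in H T, 51.0 and 31.3 in NPP T, and 71.7 and 47.1 in HPP T (0.79 ± 0.33, adjusted p = 0.136). PSAP, the precursor of the saposins that help hydrolases act on lipids, rose in both lines (1.02 ± 0.31 in MCF10A and 0.72 ± 0.18 in MDA-MB-231). CTSD, the aspartic protease cathepsin D, rose in MDA-MB-231 (0.69 ± 0.19).

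CTSL and CTSZ, which encode cathepsins L and Z, did not pass in total mRNA of either line in the main fit. CTSL was at 116.1 and 100.1 CPM in MCF10A N T, 124.6 and 137.0 in H T, 125.8 and 173.5 in NPP T, and 159.4 and 215.9 in HPP T (0.80 ± 0.26, adjusted p = 0.0600). The level in MDA-MB-231 was 58.6 and 56.9 CPM in N T, 51.9 and 68.7 in H T, 68.4 and 68.7 in NPP T, and 64.5 and 58.6 in HPP T (0.09 ± 0.19). CTSZ was at 333.2 and 327.2 CPM in MCF10A N T, 384.6 and 465.6 in H T, 287.4 and 504.4 in NPP T, and 370.8 and 508.9 in HPP T (0.41 ± 0.31). In MDA-MB-231 it was at 204.7 and 223.9 CPM in N T, 229.0 and 249.3 in H T, 191.5 and 222.0 in NPP T, and 229.7 and 221.1 in HPP T (0.07 ± 0.15).

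Among the V-ATPase genes, ATP6V1B2, a subunit of the cytosolic sector that hydrolyses ATP, was the only member to pass in total mRNA. Its MCF10A levels were 43.0 and 40.4 CPM in N T, 38.0 and 37.7 in H T, 60.3 and 57.9 in NPP T, and 69.3 and 85.1 in HPP T (0.89 ± 0.26, adjusted p = 0.0423). Its MDA-MB-231 levels were 81.5 and 84.9 CPM in N T, 79.0 and 88.8 in H T, 90.3 and 97.7 in NPP T, and 100.3 and 92.9 in HPP T (0.21 ± 0.13, adjusted p = 0.287). The MCF10A call was lost without a filter, with only the groups compared, and without any 1 of its 4 libraries. The other 13 V-ATPase members did not pass, with changes in HPP against N between −0.54 and 0.75 in MCF10A and between −0.08 and 0.38 in MDA-MB-231.

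**Figure D2:**
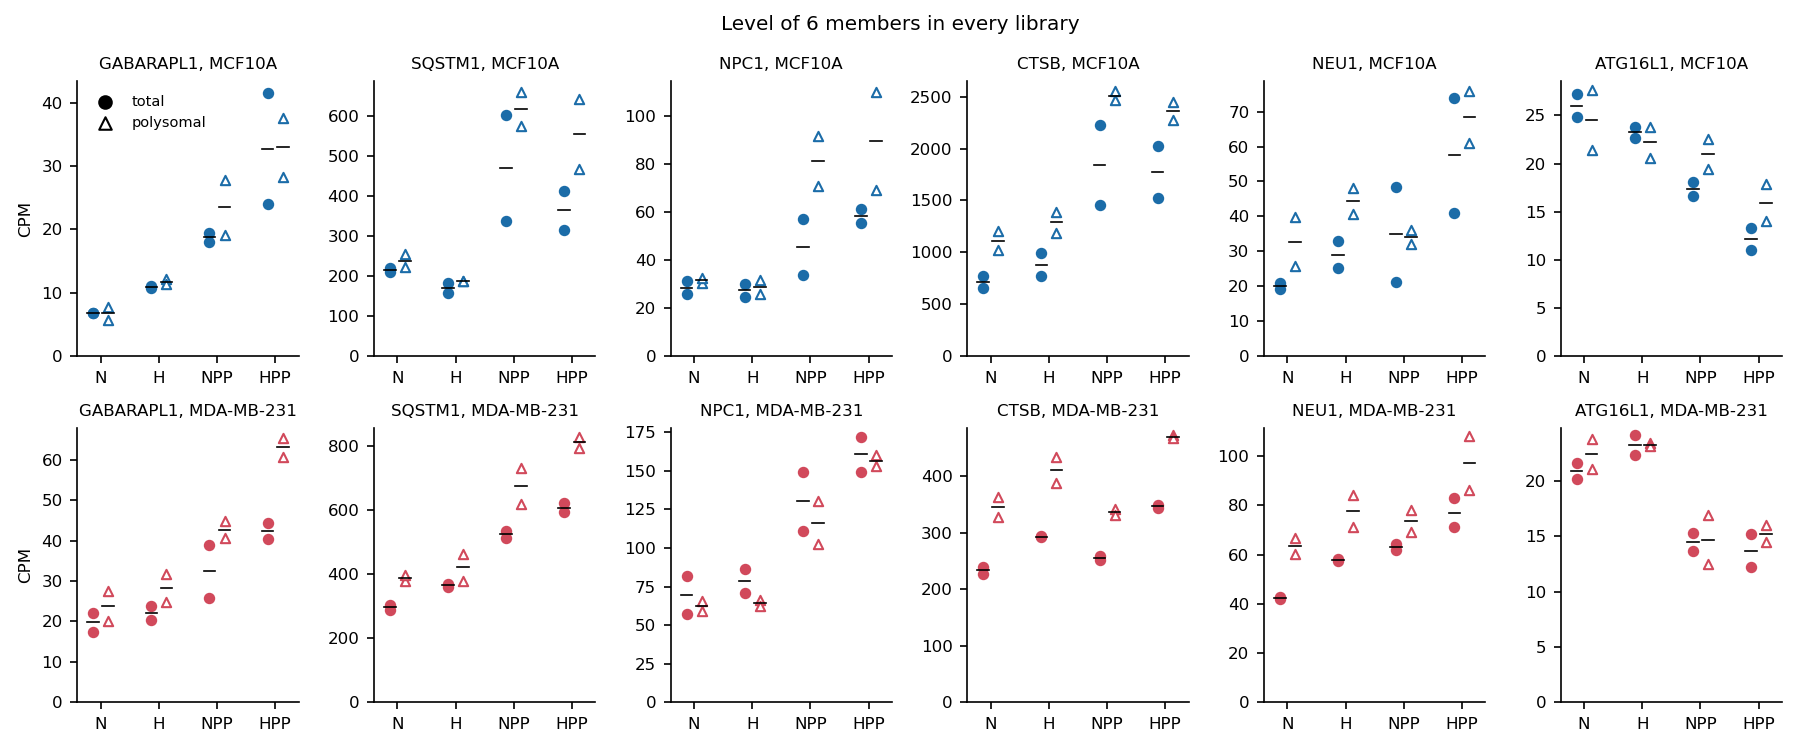
Level of 6 members in CPM (vertical axis, from 0) in every library, by condition (horizontal axis), in MCF10A (top, blue) and MDA-MB-231 (bottom, red). Filled circles are total mRNA, open triangles are polysomal mRNA and lines are means of 2 replicates. GABARAPL1, SQSTM1 and NPC1 are higher and ATG16L1 is lower in the total mRNA libraries with PP242 than in those without it, in both lines.

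Hypoxia alone gave 0 or 1 calls among the 48 members by edgeR, near the share of all genes. Counts at an unadjusted p under 0.05 are given here and below for the members only, so they are not compared with a background. In MCF10A 0 members passed in T and 0 in P by edgeR, where 1.54% and 1.49% of all genes did (2 and 1 members had an unadjusted p under 0.05, and DESeq2 called 0 in each, against 3.7% and 3.97% of all genes). In MDA-MB-231 0 passed in T, where 1.27% of all genes did, with 9 members at an unadjusted p under 0.05 and 1 (CTSB) called by DESeq2, against 2.47% of all genes. In P, where 2.29% of all genes passed, the V-ATPase membrane-sector subunit ATP6V0E1 rose. It was at 96.6 and 91.5 CPM in N P and at 175.6 and 169.2 CPM in H P (0.88 ± 0.17, adjusted p = 0.0160), and the call was lost when any of these 4 libraries was left out, in fits that called 0.533% to 1.6% of all genes. An unadjusted p under 0.05 was reached by 7 members there, with no share of all genes at that threshold beside this count. DESeq2 called 3 (ATP6V0E1, ATG9A and ATP6V1F), where it called 5.43% of all genes. The offset for transcript length and the fit without a filter called 4 each, where they called 4.68% and 4.27% of all genes, and so did the replicate block, against 4.74%.

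In normoxia with PP242, 0 to 3 members passed by edgeR, and both this number and the share of all genes moved up or down with the fit. In MCF10A 0 passed in T by edgeR, where 0.648% of all genes did, although 7 had an unadjusted p under 0.05 and DESeq2 called 3 (CTSB, GABARAPL1 and SQSTM1), against 2.54% of all genes. The length offset called 3 (CTSB, NPC2 and SQSTM1) and the replicate block 2 (CTSB and GABARAPL1), against 2.22% and 1.7%. The lowest adjusted p was 0.0618, for GABARAPL1 (1.48 ± 0.31). In P, where 0.823% of all genes passed, GABARAPL1 rose from 5.69 and 7.74 CPM in N to 19.2 and 27.8 CPM in NPP (1.80 ± 0.31, adjusted p = 0.0232), a call lost without any of the 4 libraries, where 0.061% to 0.152% of all genes passed, and without the libraries of uneven coverage, where 0.541% of all genes passed. With only the groups compared it was lost too, where 0.762% passed. There 12 members had an unadjusted p under 0.05, again with no share of all genes beside this count. DESeq2 called 6 in P (ATP6V0A1, ATP6V1B2, CTSB, GABARAPL1, NPC1 and SQSTM1), and 6 were called with the length offset, against 5.24% and 6.12% of all genes. The replicate block called 7 there, against 5.07%. In MDA-MB-231, SQSTM1 (0.82 ± 0.14) and ATG14 (0.63 ± 0.13), a subunit that targets the Beclin 1 complex to the autophagosome, rose in T, where 0.555% of all genes passed. SQSTM1 (0.80 ± 0.14), ATG14 (0.62 ± 0.13) and NPC1 (0.90 ± 0.19) rose in P, where 1.95% passed. Both T calls were lost when any of the 4 libraries was left out, and 0 to 1 of the 3 P calls was made then, in fits that called 0.074% to 0.185% of all genes in T and 0.762% to 1.17% in P. With only the groups compared 0 were called in T, against 0.0666% of all genes, and without a filter 6 in T and 7 in P, against 1.68% and 2.96%. DESeq2 called 5 in T and 7 in P, against 2.16% and 4.45% of all genes, and the length offset 6 in P, against 2.86%. The replicate block called 4 in T and 7 in P, against 1.34% and 3.61%. In T and P, 12 and 11 members had an unadjusted p under 0.05, counts with no share of all genes beside them.

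Against hypoxia alone, HPP gave more calls than PP242 did in normoxia, though the difference between the 2 effects was not tested. In MCF10A T, GABARAPL1 rose (1.59 ± 0.31), where 1.33% of all genes rose and 2.42% fell. In MCF10A P, SQSTM1 (1.57 ± 0.30), ATP6V1B2 (1.46 ± 0.27), GABARAPL1 (1.50 ± 0.31) and NPC1 (1.65 ± 0.31) rose, where 2.63% rose and 3.87% fell. In MDA-MB-231 T, 7 members rose and ATG16L1 fell, against 1.7% and 2.08% of all genes. In MDA-MB-231 P, 10 members rose and 2 fell, against 4.86% and 6.62% of all genes. The members that rose in both fractions there were ATG14, GABARAPL1, NPC1, RB1CC1, SQSTM1, TPP1 and ULK1, and in P also ATP6V1B2, PSAP and WIPI1. In MCF10A the calls depended on the fit. There were 5 in T and 0 in P without the 4 libraries of uneven coverage, of which H P replicate 1 and HPP P replicate 2 are in the P comparison and none is in the T comparison. All genes were called there at 6.79% and 1.03%. The offset for transcript length gave 8 in each fraction (9.56% and 15.2% of all genes), and DESeq2 gave 6 in T and 10 in P (7.9% and 12.4%). The replicate block gave 6 in T (8.79%) and 11 in P (14.9%). With only the groups compared 0 were called in T and 0 in P, where edgeR called 0.0% and 0.282% of all genes. The MCF10A T call was lost without HPP T replicate 2 or either H T replicate, and the 4 MCF10A P calls became 5 and 0 without HPP P replicates 1 and 2, and 0 and 1 without H P replicates 1 and 2. These fits called 0.526% to 0.975% of all genes in T, and in P 3.35%, 1.01%, 1.36% and 2.35% in the order given. The 8 MDA-MB-231 T calls became 3 and 0 without HPP T replicates 1 and 2, where 1.1% and 0.163% of all genes were called, and 9 and 0 without H T replicates 1 and 2, where 7.34% and 0.333% were. With only the groups compared 2 were called, against 1.01%. In P, 6 to 8 were called when 1 library was left out, against 3.07% to 8.21% of all genes. The 2 that fell in P were ATG16L1 (−0.61 ± 0.17) and ATP6V1F (−1.13 ± 0.18), the latter from 60.4 and 61.6 CPM in H P to 26.3 and 29.4 CPM in HPP P. The ATG16L1 call was lost without a filter and without any 1 of its 4 libraries. ATP6V1F has the shortest transcript of the 48, and the short-minus-long difference of these libraries was 0.43 and 0.30 in H P and −0.48 and −0.26 in HPP P. With the offset for transcript length ATP6V1F fell by less and still passed (−0.50 ± 0.14, adjusted p = 0.0323). In this comparison DESeq2 called 19 members, against 17.3% of all genes. An unadjusted p under 0.05 was reached by 26 members, a count with no share of all genes beside it.

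The effects of PP242 in normoxia (NPP against N) and in hypoxia (HPP against H) come from separate libraries. In total mRNA they had the same sign for 41 of 48 members in MCF10A and 44 of 48 in MDA-MB-231, and Pearson's r across the 48 members was 0.78 and 0.93. In polysomal mRNA the sign was the same for 38 and 41 of 48, and r was 0.85 and 0.87. As shares, these are 85.4% and 91.7% of the members in T and 79.2% and 85.4% in P, beside 76.6% and 73.8% of all tested genes in T and 78.1% and 75.3% in P. Over all tested genes r was 0.60 and 0.36 in T and 0.62 and 0.41 in P. These correlations are across genes, which share their libraries and are not independent replicates. In MCF10A the 2 effects also share a skew in coverage by transcript length. The short-minus-long difference was high in replicate 1 of both P controls (N 1.19 and H 0.97). In T it was high in replicate 2 of both PP242 groups (NPP 1.52 and HPP 0.73). How far this skew raised r was not tested. ULK1 had opposite signs in MCF10A, with a log2 change of 0.49 ± 0.37 in normoxia and −0.52 ± 0.37 in hypoxia, neither of which passed.

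**Figure D3:**
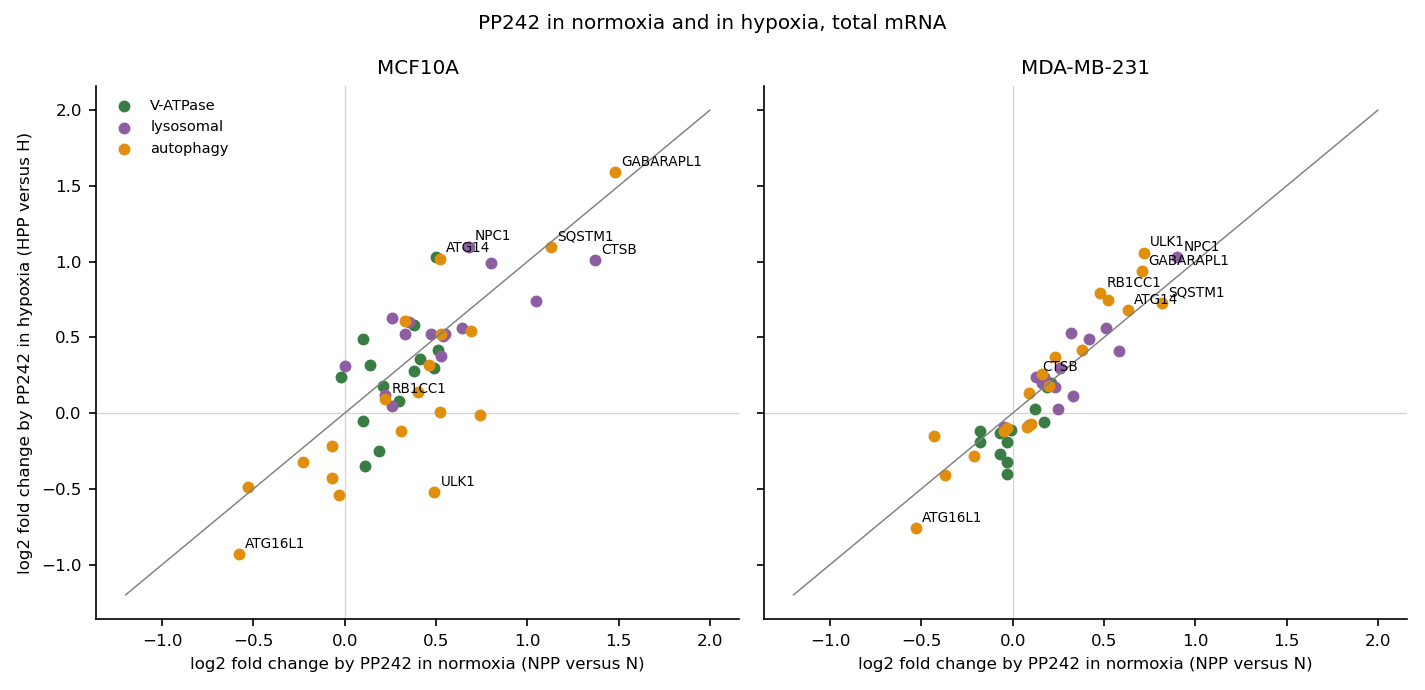
Log2 fold change in total mRNA by PP242 in normoxia (horizontal axis, NPP against N) and in hypoxia (vertical axis, HPP against H) for the 48 members in each line, coloured by class, with the line of equal change. GABARAPL1 lies at the upper right and ATG16L1 at the lower left in both lines, and the V-ATPase members of MDA-MB-231 lie between −0.18 and 0.21 on the horizontal axis and between −0.40 and 0.21 on the vertical axis.

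In polysomal mRNA, 11 members rose and 0 fell in HPP against N in MCF10A, where 10.2% of all genes rose and 11.9% fell. In MDA-MB-231, 13 rose and 1 fell, against 9.71% and 9.73% of all genes. In either direction this is 22.9% of the members beside 22.2% of all genes in MCF10A, again near the background, and 29.2% beside 19.4% in MDA-MB-231. By class, 2 of 14 V-ATPase, 6 of 15 lysosomal and 3 of 19 autophagy members rose in MCF10A, and 1 of 14, 5 of 15 and 7 of 19 rose in MDA-MB-231, where 1 autophagy member fell. The median log2 fold changes were 0.09, 0.56 and 0.10 in MCF10A, beside −0.04 over all genes, and 0.11, 0.30 and 0.42 in MDA-MB-231, beside 0.01. Of the 15 lysosomal members 13 had a positive change in MCF10A, the others being NPC2 (−1.12 ± 0.47) and CTSZ, and 12 in MDA-MB-231, the others being NPC2 (−0.26 ± 0.19), CTSZ and HEXA (−0.03 ± 0.17), a subunit of hexosaminidase. The 7 that rose in both lines were ATP6V1B2, CTSB, GABARAPL1, NPC1, PSAP, SQSTM1 and TPP1. The MCF10A count was 9 and 1 without HPP P replicates 1 and 2, 2 and 5 without N P replicates 1 and 2, in fits that called 16.8%, 7.81%, 9.28% and 17.1% of all genes in that order. It was 1 (GABARAPL1) without the 4 libraries of uneven coverage, 2 of which are in this comparison and where 7.86% of all genes were called. With the offset for transcript length it was 18, of which 9 were among the 11, and 34.4% of all genes were called. With the replicate block it was 21, which held all 11, and 36.5% of all genes were called. With only the groups compared it was 4 (ATP6V1B2, GABARAPL1, NPC1 and TPP1), against 11.9% of all genes. The MDA-MB-231 count of 14 was 4 and 9 without HPP P replicates 1 and 2, and 10 and 7 without N P replicates 1 and 2, where 6.42%, 9.28%, 10.8% and 12.5% of all genes were called.

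In polysomal mRNA GABARAPL1 again had the largest rise of the autophagy genes in each line. The MCF10A libraries held 5.69 and 7.74 CPM in N P, 12.1 and 11.3 in H P, 19.2 and 27.8 in NPP P, and 28.3 and 37.7 in HPP P (2.30 ± 0.32, adjusted p = 0.000707). Those of MDA-MB-231 held 27.6 and 20.0 CPM in N P, 31.7 and 24.7 in H P, 44.8 and 40.5 in NPP P, and 65.4 and 60.6 in HPP P (1.41 ± 0.21, adjusted p = 0.000507). All PP242 libraries lay above all others in both lines. SQSTM1 was at 254.8 and 221.4 CPM in MCF10A N P, 188.5 and 186.45 in H P, 661.9 and 575.8 in NPP P, and 468.4 and 642.1 in HPP P. For MDA-MB-231 the SQSTM1 values were 377.9 and 396.6 CPM in N P, 464.4 and 378.8 in H P, 732.2 and 618.1 in NPP P, and 829.4 and 793.0 in HPP P (1.07 ± 0.14, adjusted p = 0.000125). Here too the PP242 libraries were the higher ones in both lines.

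MAP1LC3B rose in polysomal mRNA of MDA-MB-231, and its MCF10A change did not pass. It was at 144.0 and 91.6 CPM in MCF10A N P, 172.3 and 138.2 in H P, 133.5 and 151.4 in NPP P, and 208.4 and 166.8 in HPP P (0.67 ± 0.27, adjusted p = 0.0990). The MDA-MB-231 values were 184.9 and 161.9 CPM in N P, 251.3 and 214.6 in H P, 186.5 and 211.3 in NPP P, and 264.3 and 263.9 in HPP P (0.61 ± 0.14, adjusted p = 0.00943), with no overlap between conditions, and the call was lost without HPP P replicate 1 or N P replicate 2. GABARAPL2 passed in neither line. Its polysomal levels in MCF10A were 117.3 and 90.7 CPM in N, 125.2 and 80.4 in H, 135.8 and 119.0 in NPP, and 121.7 and 89.5 in HPP (0.02 ± 0.34). Its polysomal levels in MDA-MB-231 were 73.6 and 51.7 CPM in N, 102.4 and 85.2 in H, 73.4 and 62.7 in NPP, and 81.5 and 85.7 in HPP (0.42 ± 0.19, adjusted p = 0.128).

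ATG16L1 fell in polysomal mRNA of MDA-MB-231, from 21.1 and 23.8 CPM in N P and 23.4 and 23.2 in H P to 12.5 and 16.9 in NPP P and 16 and 14.5 in HPP P (HPP against N −0.56 ± 0.17, adjusted p = 0.0307). This call was lost without a filter and without any 1 of its 4 libraries. The MCF10A values were 21.4 and 27.7 CPM in N P, 20.6 and 23.8 in H P, 22.6 and 19.4 in NPP P, and 14.0 and 17.9 in HPP P (−0.62 ± 0.23, adjusted p = 0.0787), with HPP the lowest. ULK1 rose in polysomal mRNA of MDA-MB-231, where it was at 16.5 and 14.8 CPM in N P, 11.5 and 13.4 in H P, 27.3 and 22.5 in NPP P, and 27.4 and 25.0 in HPP P (0.75 ± 0.21, adjusted p = 0.0230). Both PP242 groups lay above N and H there, although the call was lost without any 1 of its 4 libraries. Its changes in T (0.59 ± 0.21) and P were not shown to differ, since its Te test did not pass. In MCF10A the conditions overlapped for ULK1, at 14.4 and 26.1 CPM in N P, 17.5 and 34.4 in H P, 28.5 and 29.4 in NPP P, and 19.2 and 28.2 in HPP P (0.23 ± 0.37). WIPI1 was at 24.4 and 14.8 CPM in MCF10A N P, 20.4 and 19.6 in H P, 18.8 and 21.7 in NPP P, and 10.8 and 15.0 in HPP P (−0.60 ± 0.42). For WIPI1 in MDA-MB-231 the values were 40.8 and 32.6 CPM in N P, 33.6 and 37.0 in H P, 55.1 and 45.2 in NPP P, and 47.3 and 56.4 in HPP P (0.50 ± 0.17, adjusted p = 0.0503). All its PP242 libraries were above the others there, and the change did not pass.

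Among the lysosomal genes, NPC1 and TPP1 rose in polysomal mRNA of both lines. NPC1 was at 30.5 and 32.5 CPM in MCF10A N P, 25.8 and 31.7 in H P, 91.8 and 71.0 in NPP P, and 69.4 and 110.3 in HPP P (1.51 ± 0.31, adjusted p = 0.00565). The MDA-MB-231 libraries had NPC1 at 65.4 and 59.1 CPM in N P, 66.2 and 62.2 in H P, 130.5 and 102.4 in NPP P, and 160.2 and 153.1 in HPP P (1.33 ± 0.20, adjusted p = 0.000398). The PP242 libraries did not overlap the others in either line. TPP1 was at 20.5 and 31.3 CPM in MCF10A N P, 35.0 and 39.2 in H P, 49.5 and 42.8 in NPP P, and 62.8 and 81.5 in HPP P (1.48 ± 0.34, adjusted p = 0.00964). The MDA-MB-231 libraries had TPP1 at 40.5 and 39.9 CPM in N P, 43.4 and 43.7 in H P, 57.5 and 53.3 in NPP P, and 69.0 and 72.7 in HPP P (0.82 ± 0.12, adjusted p = 0.000414). The order N, H, NPP, HPP held without overlap for TPP1 in both lines. Both MDA-MB-231 calls held in every alternative run. Both MCF10A calls were lost without the libraries of uneven coverage and without HPP P replicate 2, and that of TPP1 also without N P replicate 1.

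CTSB rose in polysomal mRNA of both lines, and the groups lay differently. Its MCF10A P libraries were at 1206.4 and 1019.4 CPM in N, 1187.2 and 1389.9 in H, 2471.6 and 2553.4 in NPP, and 2273.0 and 2451.3 in HPP (1.09 ± 0.29, adjusted p = 0.0201). Its MDA-MB-231 P libraries were at 361.9 and 327.1 CPM in N, 432.9 and 387.1 in H, 341.2 and 331.7 in NPP, and 472.3 and 466.1 in HPP (0.45 ± 0.12, adjusted p = 0.0187). In the latter NPP lay within the range of N. The MCF10A call was lost without any 1 of its 4 libraries, and the MDA-MB-231 call without either HPP P replicate or N P replicate 2. NEU1 was at 39.7 and 25.8 CPM in MCF10A N P, 48.2 and 40.6 in H P, 32 and 36.1 in NPP P, and 60.9 and 75.8 in HPP P (1.06 ± 0.39, adjusted p = 0.0740). The MDA-MB-231 libraries had NEU1 at 66.6 and 60.1 CPM in N P, 84.3 and 71.4 in H P, 78.2 and 69.3 in NPP P, and 108.1 and 86.2 in HPP P (0.62 ± 0.15, adjusted p = 0.00966). HPP was the highest group in both lines, and the MDA-MB-231 call was lost without HPP P replicate 1 or N P replicate 2.

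CTSL rose in MCF10A polysomal mRNA, with no overlap between the 4 conditions. It was at 201.7 and 172.1 CPM in N P, 252.2 and 202.3 in H P, 335.7 and 274.5 in NPP P, and 342.3 and 425.3 in HPP P (1.04 ± 0.26, adjusted p = 0.0152). The call was lost without HPP P replicate 2, without either N P replicate and without the libraries of uneven coverage. The conditions overlapped in MDA-MB-231, at 99.5 and 72.4, 89.3 and 62.4, 104.3 and 90.6, and 92.7 and 90.3 CPM in the same order (0.09 ± 0.19). CTSZ passed in neither line. It was at 672.8 and 472.9 CPM in MCF10A N P, 841.0 and 628.9 in H P, 543.3 and 610.6 in NPP P, and 594.9 and 545.9 in HPP P (−0.01 ± 0.31), and at 328.6 and 255.0, 327.9 and 290.3, 265.5 and 253.5, and 249.9 and 289.7 CPM in MDA-MB-231 (−0.11 ± 0.15). Of the V-ATPase, ATP6V1B2 passed in both lines, with calls that depended on single libraries. It was at 40.6 and 54.8 CPM in MCF10A N P, 37.4 and 49.5 in H P, 95.2 and 82.0 in NPP P, and 93.6 and 145.1 in HPP P (1.32 ± 0.27, adjusted p = 0.00525). The MDA-MB-231 libraries had ATP6V1B2 at 92.3 and 101.021 CPM in N P, 95.7 and 83.4 in H P, 114.2 and 123.5 in NPP P, and 123.4 and 129.6 in HPP P (0.39 ± 0.13, adjusted p = 0.0447). All PP242 libraries were above all others in both lines. The MDA-MB-231 call was lost with only the groups compared and without any 1 of its 4 libraries, and the MCF10A call without the libraries of uneven coverage, HPP P replicate 2 or N P replicate 1.

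The lysosomal members together made up 0.343% and 0.377% of protein-coding counts in MCF10A N P and 0.620% and 0.770% in HPP P. In MDA-MB-231 the shares were 0.287% and 0.245% in N P and 0.403% and 0.381% in HPP P. Autophagy members made up 0.086% and 0.103% in MCF10A N P and 0.151% and 0.160% in HPP P, and 0.122% and 0.122% and then 0.216% and 0.211% in MDA-MB-231. V-ATPase members made up 0.144% and 0.125% in MCF10A N P and 0.162% and 0.157% in HPP P, and 0.150% and 0.136% and then 0.169% and 0.171% in MDA-MB-231. As raw shares, the HPP libraries were higher than the N libraries in each of these 6 pairs of groups. Those of MCF10A hold N P replicate 1 and HPP P replicate 2, both of uneven coverage. These shares were taken without TMM scaling and have no share for other genes beside them, so they do not show a rise on the TMM scale. On that scale 8 of the 14 V-ATPase members had a positive change for MCF10A P, with a median of 0.09. For MDA-MB-231 P these values were 10 of 14 and 0.11. In T the V-ATPase shares overlapped in MCF10A, at 0.119% and 0.122% in N and 0.118% and 0.129% in HPP, and those of MDA-MB-231 were 0.138% and 0.141% and then 0.147% and 0.142%. The member with the most counts was CTSB among the lysosomal members of MCF10A and SQSTM1 among the autophagy members of both lines.

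Translation efficiency (Te) was taken as the change in P minus the change in T and tested as an interaction. No member passed for H, NPP or HPP in either line by edgeR. Over all genes, 0.0% passed for each treatment in MCF10A, and 0.0148%, 0.34% and 0.696% passed for H, NPP and HPP in MDA-MB-231. DESeq2 called 0 members as well, but gave an adjusted p to only 9 and 26 of the 48 for NPP and HPP in MCF10A and to 36 for NPP in MDA-MB-231, so the others were not tested by it. In those 3 tests it called 10.8% of 853, 4.42% of 3167 and 2.28% of 4690 genes. In its other 3 tests all 48 had an adjusted p, and it called 0.0% and 0.0104% for H in MCF10A and MDA-MB-231 and 1.2% for HPP in MDA-MB-231. The members with an unadjusted p under 0.05 numbered 0, 1 and 1 for H, NPP and HPP in MCF10A. For MDA-MB-231 they numbered 0, 1 and 2. The lowest belonged to NPC2, the soluble cholesterol carrier that works with NPC1. Its Te change in HPP was −1.90 ± 0.66 in MCF10A (adjusted p = 0.906) and −0.75 ± 0.27 in MDA-MB-231 (adjusted p = 0.891). In MDA-MB-231 NPC2 was at 166.5 and 165.5 CPM in N T and 241.9 and 223.1 in HPP T, and at 284.9 and 213.1 in N P and 205.9 and 209.0 in HPP P. In MCF10A it was at 208.2 and 198.5 and then 268.8 and 432.0 CPM in T, and at 565.5 and 256.8 and then 223.4 and 156.1 CPM in P. The 565.5 CPM came from N P replicate 1, a library of uneven coverage, and NPC2 has a short transcript of 821 bases. With the offset for transcript length the Te change of NPC2 was −0.95 ± 0.21 in MCF10A (adjusted p = 0.0979) and −0.51 ± 0.17 in MDA-MB-231, which did not pass either (adjusted p = 0.656). Across the 48 members the Te change in HPP had a Spearman rho with transcript length of 0.65 in MCF10A and 0.40 in MDA-MB-231, and over all genes tested it was 0.54 and 0.36. These are descriptions across genes of the same libraries.

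**Figure D4:**
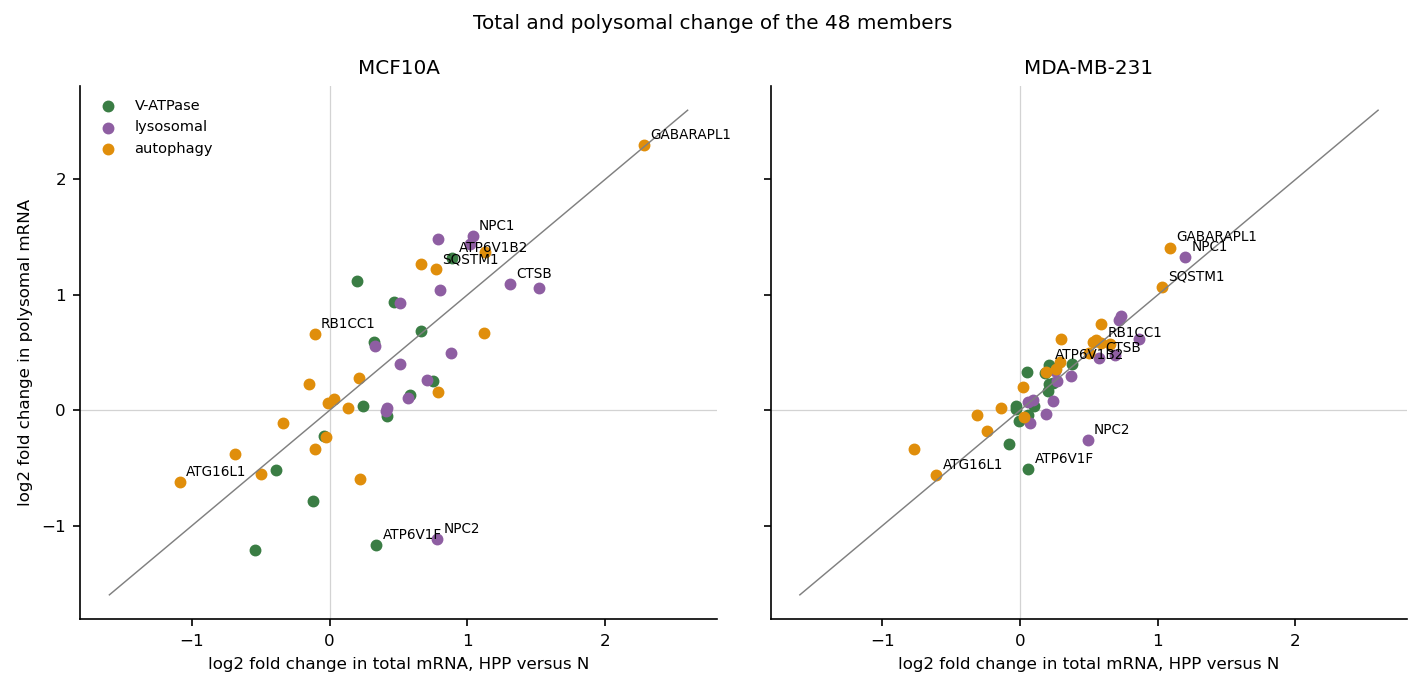
Log2 fold change in HPP against N in total mRNA (horizontal axis) and in polysomal mRNA (vertical axis) for the 48 members in each line, coloured by class, with the line of equal change. NPC2 and ATP6V1F lie below it in both lines, but no Te test of a member passed.

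The effect of HPP was compared between the lines by a test of the difference. In a joint fit of all 32 libraries, 0 members were called by edgeR in T, where 3.31% of all genes were, and 0 in P, where 3.6% were. An unadjusted p under 0.05 was reached by 4 members in T and 7 in P, with no share of all genes at that threshold beside these counts. DESeq2 called 0 in T and 2 in P (ATP6V1B2 and ATP6V1C1), against 4.98% and 6.74% of all genes. Without the 4 MCF10A libraries of uneven coverage 1 was called in T (ATP6V1B2) and 0 in P, against 6.79% and 3.38% of all genes. With the length offset 0 were called in T and 2 in P (ATP6V1B2 and CTSL), against 6.42% and 8.57%. The replicate block called 1 in T (ATG13) and 3 in P (ATG13, ATP6V1B2 and CTSL), against 7.41% and 9.23%. The difference, MDA-MB-231 minus MCF10A, was −1.12 ± 0.41 for GABARAPL1 in T (adjusted p = 0.154) and −0.96 ± 0.31 for ATP6V1B2 in P (adjusted p = 0.0933). When 1 library was left out, 7 of 8 fits called 0 members in T and 7 of 8 called 0 in P. The others called GABARAPL1 in T without MCF10A HPP T replicate 1, where 2.97% of all genes were called, and ATP6V1B2 in P without MCF10A HPP P replicate 1, where 4.23% were. ATG13, a subunit of the ULK1 complex, had opposite signs in the lines, and neither change passed within its line (adjusted p = 0.303 and 0.298). It was at 29.9 and 42.2 CPM in N T and 21.7 and 29.4 CPM in HPP T in MCF10A (−0.50 ± 0.30), and at 54.6 and 50.1 and then 58.8 and 66.8 CPM in MDA-MB-231 (0.26 ± 0.16). The difference was 0.84 ± 0.36 (adjusted p = 0.258). The median line difference in T over all genes was 0.05 here, −0.27 by DESeq2 and −0.13 without a filter. DESeq2 changed the genes tested and the model along with the scaling, and which of these moved the median was not tested. The difference of ATG13 was 0.84 here, 0.70 by DESeq2 and 0.82 without a filter, and that of GABARAPL1 was −1.12, −1.27 and −1.13.

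In normoxia the lines differed in the level of 13 of the 48 members in total mRNA. In MDA-MB-231, 5 were higher and 8 lower than in MCF10A, where 20.3% of all genes were higher and 20.5% were lower. Preparation, sequencing and the line cannot be told apart, since each line has its own table of libraries, and the MCF10A libraries are those with CDH1 and TP63 near 0 CPM. No V-ATPase member passed (lowest adjusted p = 0.0589), with 1 at an unadjusted p under 0.05. ULK2, a kinase related to ULK1, was at 25.2 and 30.8 CPM in MCF10A and 2.21 and 2.95 CPM in MDA-MB-231 (log2 difference −3.45 ± 0.33, adjusted p = 3.58e-08). On the scale of each line, ULK2 was at 21.5 and 26 CPM in MCF10A N T, 26 and 20.7 in H T, 27.0 and 13.4 in NPP T, and 22.6 and 14.9 in HPP T. The MDA-MB-231 libraries had ULK2 at 2.55 and 3.52 CPM in N T, 2.12 and 1.78 in H T, 1.99 and 2.48 in NPP T, and 1.84 and 1.68 in HPP T. The 8 polysomal libraries held 10.1 to 17.4 CPM in MCF10A (N 14.9 and 14.7, H 15.5 and 15.4, NPP 12.5 and 14.6, HPP 17.4 and 10.1) and 1.11 to 2.16 CPM in MDA-MB-231 (N 1.61 and 2.16, H 1.11 and 1.96, NPP 1.9 and 1.78, HPP 1.49 and 1.5). No library of either line reached the range of the other, and HPP against N did not pass in T of either (−0.34 ± 0.36 in MCF10A and −0.77 ± 0.29 in MDA-MB-231). Among the lysosomal members the largest differences were in cathepsins. CTSB was at 773.0 and 915.6 CPM in MCF10A and 208.2 and 189.6 CPM in MDA-MB-231 (−2.09 ± 0.23, adjusted p = 2.28e-07). CTSL was at 136.2 and 118.4 and then 50.9 and 47.6 CPM (−1.37 ± 0.24), and CTSZ was at 391.0 and 386.8 and then 177.7 and 187.3 CPM (−1.09 ± 0.25). In the opposite direction, GABARAPL1 was at 7.88 and 7.97 CPM in MCF10A and 19.2 and 14.6 CPM in MDA-MB-231 (1.09 ± 0.29), and WIPI1 was at 15.6 and 18.4 and then 37.3 and 31.5 CPM (1.02 ± 0.35). These CPM were scaled over both lines together and so differ from those scaled within a line. Also lower in MDA-MB-231 were ATG16L1, LAMP1, GABARAPL2 and BECN1, and also higher were UVRAG, NPC1 and MCOLN1. The count of 13 was 8 and 9 without MCF10A N T replicates 1 and 2, 7 and 10 without MDA-MB-231 N T replicates 1 and 2, in fits that called 30.5% to 31.8% of all genes, and 25 without the 4 MCF10A libraries of uneven coverage, none of which is in this comparison. With the length offset it was 26, and both fits called all 13. All genes were called at 51.4% and 49.8% in these fits. With only the groups compared it was 31, which held all 13, and with the replicate block 20, which held 12 of them, against 59.2% and 44.8% of all genes.

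**Figure D5:**
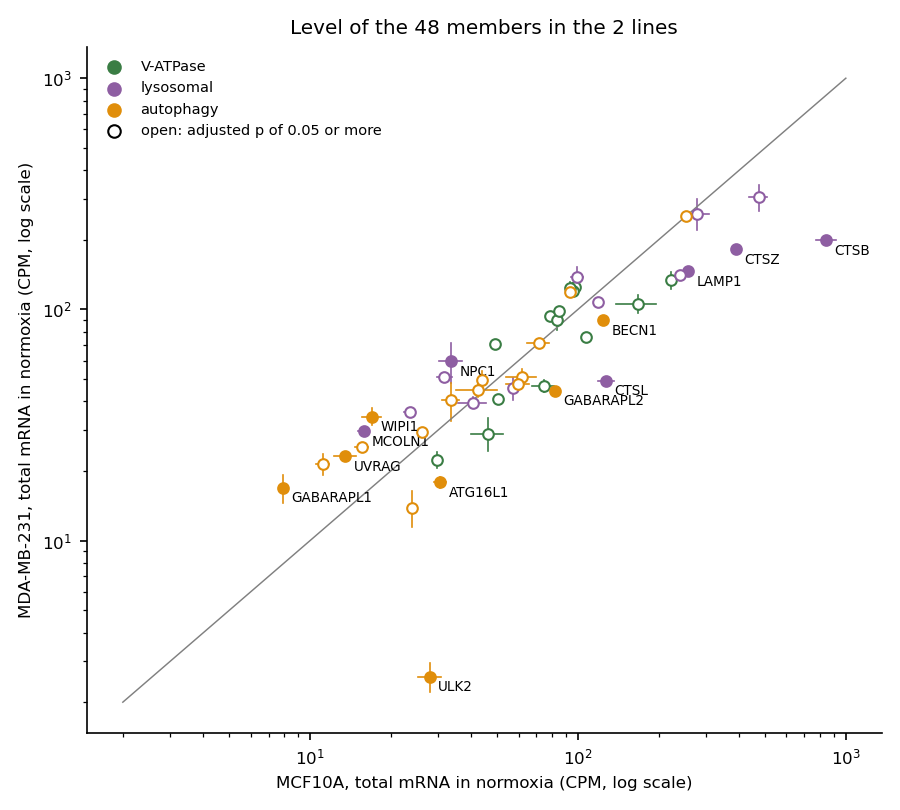
Level of the 48 members in total mRNA in normoxia in MCF10A (horizontal axis) and MDA-MB-231 (vertical axis), in CPM on log scales with the line of equality. Points are means of 2 libraries, bars join the 2 libraries, and filled points have an adjusted p under 0.05. ULK2 lies far below the line, and CTSB, CTSL and CTSZ lie below it.

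Per transcript length, NPC2 and CTSZ were the most abundant members in MCF10A in normoxia, with a mean of 291.8 and 258.9 CPM per kilobase in total mRNA. In MDA-MB-231 they were NPC2, with 172.3, and ATP6V0B, with 127.2 CPM per kilobase. The lowest was ULK2 in MDA-MB-231, at 0.282 CPM per kilobase, and ATG14 in MCF10A, at 2.36.

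Further genes of the same pathways, listed by function, were counted in HPP against N, where 7.43% of all genes rose and 7.47% fell in MCF10A T and 6.31% and 6.91% in MDA-MB-231 T. The median log2 fold change of all genes was −0.01 and −0.05. Of 9 other V-ATPase genes tested in MCF10A, 1 rose and 1 fell in T, and the same was true of 11 in MDA-MB-231, with a median of 0.06 and 0.02. In P, 2 rose and 1 fell in each line, with a median of −0.09 and 0.22, where 10.2% of all MCF10A genes rose and 11.9% fell, beside 9.71% and 9.73% for MDA-MB-231. The same 2 paralogous membrane-sector subunits passed in T of both lines. ATP6V0A4 went from 4.67 and 5.39 CPM in N T to 24.7 and 27.4 CPM in HPP T in MCF10A (2.37 ± 0.30, adjusted p = 0.000573), and from 6.74 and 6.08 to 13.3 and 13.1 CPM in MDA-MB-231 (1.04 ± 0.18, adjusted p = 0.00277). ATP6V0A2 went from 20.4 and 17.5 to 7.04 and 3.76 CPM (−1.81 ± 0.43, adjusted p = 0.0166), and from 51.2 and 42.2 to 27.6 and 23.5 CPM (−0.87 ± 0.14, adjusted p = 0.00160).

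Of 48 other lysosomal genes tested in MCF10A, 2 rose and 0 fell in T, where 7.43% of all genes rose, with a median log2 fold change of 0.43. Of 49 in MDA-MB-231, 6 rose and 0 fell, where 6.31% of all genes rose, with a median of 0.20. In P, 6 rose and 2 fell in MCF10A and 7 rose and 1 fell in MDA-MB-231, with a median of 0.43 and 0.23, against 10.2% and 11.9% and then 9.71% and 9.73% of all genes. GM2A, the activator protein that presents ganglioside GM2 to hexosaminidase, rose in both, from 34.2 and 43.5 to 84.0 and 88.2 CPM in MCF10A (1.15 ± 0.25) and from 28.5 and 27.5 to 58.1 and 56.3 CPM in MDA-MB-231 (1.03 ± 0.13). MANBA, a beta-mannosidase, rose in MCF10A from 10.6 and 10.5 to 23.3 and 29.5 CPM (1.33 ± 0.27). SGSH, a heparan sulfatase, rose in MDA-MB-231 from 11.3 and 8.81 to 15.4 and 20.1 CPM (0.81 ± 0.20).

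Of 31 other autophagy genes tested in each line, 3 rose and 1 fell in MCF10A T and 5 rose and 0 fell in MDA-MB-231 T, where 7.43% and 6.31% of all genes rose. Their median log2 fold change was −0.18 and −0.03. In P, 3 rose and 1 fell in MCF10A and 6 rose and 0 fell in MDA-MB-231, with a median of −0.09 and 0.03, where 10.2% and 9.71% of all genes rose and 11.9% and 9.73% fell. ZFYVE1, a protein of the membrane where autophagosomes form, rose from 9.03 and 10.8 to 38.9 and 40.5 CPM in MCF10A (2.00 ± 0.27, adjusted p = 0.000858) and from 14.3 and 12.4 to 32.9 and 35.5 CPM in MDA-MB-231 (1.35 ± 0.16, adjusted p = 0.000214). OPTN, a cargo receptor like SQSTM1, rose in both lines as well, from 66.2 and 62.8 to 170.2 and 204.9 CPM in MCF10A (1.54 ± 0.23) and from 107.7 and 102.5 to 205.6 and 178.7 CPM in MDA-MB-231 (0.87 ± 0.16). N and HPP did not overlap in T in any of these named genes. This was nearly fixed in advance, since they were picked as called with the largest change in the same libraries.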

How the data were processed

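Total and polysomal mRNA of 2 lines in 4 conditions gave 32 libraries. The authors made poly(A)-selected libraries, mapped reads with STAR to GRCh38 and estimated counts per gene with RSEM. The processing notes name build 37 for the genome, whereas the methods name GRCh38, and no coordinate of the files was used here. The deposited values are expected counts, stored as whole numbers and not normalised, with 0 columns left without a sample. RSEM shares reads among near copies of a gene.

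Protein-coding genes were kept, filtered by filterByExpr, scaled by TMM and fitted with edgeR 4.0.16 in R 4.3.3 (quasi-likelihood F test, 16 libraries and 8 residual degrees of freedom per line, Benjamini-Hochberg adjustment over the genes tested, 13124 for MCF10A and 13510 for MDA-MB-231). All 48 members passed the filter. Differences between lines came from a joint fit of 14298 genes. Permuting 2 against 2 libraries cannot give a two-sided p below 0.333, and no such test was run. The fit was tested on simulated counts for HPP against N in T. Changes of 1 on the log2 scale were recovered in 0% of cases for MCF10A and 71.4% for MDA-MB-231, and changes of 2 in 42.2% and 92.2%. Only 98 genes were given a change of 1 and 102 a change of 2, whereas the measured MCF10A comparison called 1956 genes. The adjusted p depends on how many genes change, so these rates do not give the power of the measured comparison. There, MCF10A changes of 0.89 (ATP6V1B2) and 1.04 (NPC1) passed. Replicates are described as biological, and the titles give each replicate of each condition its own number, which its T and P libraries share and which was read as 1 culture. Replicates 1 and 2 deviated alike across the MCF10A T groups (6 of 6 correlations over 0.1), so blocked counts are given beside those results.

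Members and gene lists were chosen with earlier results of these data known. Values in every library are given for the 3 called members with the largest change in HPP against N in T per class and line, the 3 with the largest called line difference per class, and GABARAPL1, GABARAPL2, MAP1LC3B, SQSTM1, ULK1 and WIPI1. For other pathway genes the N and HPP libraries of T are given for the 2 called with the largest change per list and line. ATG13, NPC2, ATP6V1F, ATP6V0E1 and RB1CC1 were added after their values were seen.

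Alternatives were DESeq2 1.42.0, upper-quartile scaling, no filter, only the groups compared, a replicate block, a culture block, a loess offset for transcript length (span 0.3) and each library left out. Leaving out together the 4 MCF10A libraries whose short-minus-long difference exceeded 0.9 in size was added after seeing the data. Transcript lengths and loci came from a GRCh38 annotation. Reads were not analysed here.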

Additional observations from a re-analysis of the deposited data

How the results depend on the processing

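Of the 16 libraries per line, 2 form each group, and most counts of called members depended on the fit, as did the share of all genes called, given in parentheses in the same order. Relative to the counts above, DESeq2 called in MCF10A 3 members in NPP T, 6 in NPP P, and, for HPP against H, 6 in T and 10 in P (2.54%, 5.24%, 7.9% and 12.4%). In MDA-MB-231 it called 1 in H T, 3 in H P, 5 in NPP T, 7 in NPP P, and 19 for HPP against H in P, and 2 for the line difference in P (2.47%, 5.43%, 2.16%, 4.45%, 17.3% and 6.74%). Without a filter, 5 were called in MCF10A HPP T and, in MDA-MB-231, 6 in NPP T, 7 in NPP P and 4 in H P (9.56%, 1.68%, 2.96% and 4.27%). When the fit held only the groups compared, it called 1 in MCF10A HPP T, 4 in HPP P, 0 in NPP P, and 0 in T and 0 in P for HPP against H (8.53%, 11.9%, 0.762%, 0.0% and 0.282%). In MDA-MB-231 it called 0 in NPP T and 2 for HPP against H in T, and 31 between lines in normoxia (0.0666%, 1.01% and 59.2%). With the offset for transcript length, MCF10A had 3 in NPP T, 6 in NPP P, 15 in HPP T, 18 in HPP P, and 8 in T and 8 in P for HPP against H (2.22%, 6.12%, 26.5%, 34.4%, 9.56% and 15.2%). MDA-MB-231 had 4 in H P and 6 in NPP P, the line difference in P had 2, and 26 differed between lines in normoxia (4.68%, 2.86%, 8.57% and 49.8%). Without the 4 uneven MCF10A libraries, 14 were called in HPP T, 1 in HPP P, 0 in NPP P, 5 in T and 0 in P for HPP against H, 1 for the line difference in T and 25 between lines in normoxia (23.1%, 7.86%, 0.541%, 6.79%, 1.03%, 6.79% and 51.4%). In that fit a group left with 1 library was assumed to vary like the others.

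Leaving out 1 library gave 0 to 2 in MCF10A NPP T (0.0229% to 3.25% of all genes), 1 to 5 in HPP T (4.4% to 10%), 0 to 1 for HPP against H in T (0.526% to 0.975%), 0 to 0 in NPP P (0.061% to 0.152%), 1 to 9 in HPP P (7.81% to 17.1%) and 0 to 5 for HPP against H in P (1.01% to 3.35%). In MDA-MB-231 it gave 0 to 0 in NPP T (0.074% to 0.185%), 4 to 9 in HPP T (4.02% to 6.45%), 0 to 9 for HPP against H in T (0.163% to 7.34%), 0 to 0 in H P (0.533% to 1.6%), 0 to 1 in NPP P (0.762% to 1.17%), 4 to 10 in HPP P (6.42% to 12.5%) and 6 to 8 for HPP against H in P (3.07% to 8.21%). It gave 0 to 1 for the line difference in T (1.15% to 2.97%) and in P (1.5% to 4.23%) and 7 to 10 between lines in normoxia (30.5% to 31.8%).

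To see whether replicate numbers mark pairs, the difference between the 2 replicates of each group was correlated between groups across genes. In MCF10A the 6 correlations between T groups ran from 0.283 to 0.778 and those between P groups from −0.100 to 0.635. In MDA-MB-231 they ran from −0.187 to 0.282 and from 0.002 to 0.347. All 6 were over 0.1 in MCF10A T, a hint from the data, and not in the other 3 sets. The replicates there also differed in coverage by transcript length. For replicates 1 and 2 of MCF10A T the short-minus-long difference was −0.28 and −0.28 in N, −0.70 and 0.13 in H, −0.64 and 1.52 in NPP, and −0.54 and 0.73 in HPP. Whether pairing or this coverage gave the correlations was not tested. The titles tie the T and P libraries of 1 culture together but no culture to another condition. Between T and P of the same cultures the correlations ran from −0.25 to 0.214 in MCF10A and from 0.002 to 0.348 in MDA-MB-231. With a replicate block, MCF10A had 2 in NPP T, 7 in NPP P, 14 in HPP T, 21 in HPP P, and 6 in T and 11 in P for HPP against H, where 1.7%, 5.07%, 26.5%, 36.5%, 8.79% and 14.9% of all genes were called. MDA-MB-231 had 4 in NPP T, 7 in NPP P and 4 in H P, against 1.34%, 3.61% and 4.74%, the line difference had 1 in T and 3 in P, and 20 differed between lines in normoxia (7.41%, 9.23% and 44.8%). The Te counts of members were 0 under every alternative run, the culture block included, although DESeq2 left some members untested as given above. Apart from DESeq2 these fits called 0.0% to 0.762% of all genes for HPP, 0.0% to 0.335% for NPP and 0.0% to 0.0% for H in MCF10A, and 0.429% to 0.836%, 0.0148% to 0.659% and 0.0% to 0.0936% in MDA-MB-231. Of 64 calls of named genes, 19 held in every alternative run, among them GABARAPL1 in MCF10A HPP against N in T and P and SQSTM1 in MDA-MB-231 HPP against N in T and P. Over all of them 501 of 669 values under alternatives kept direction and threshold, and 0 reversed. DESeq2 moved the median of all genes by 0.32 between lines in normoxia, where all 13 members remained called, and by −0.32, −0.26 and −0.18 in the line difference of HPP, NPP and H in T. The fit without a filter moved it by 0.27 between lines in normoxia and by −0.18, −0.10 and −0.12 in the same line differences. Upper-quartile scaling moved it by −0.10 in that of HPP and kept every count within 1.5 times.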
